A study of Rattus norvegicus with 3 samples.

Results

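The genes described here encode subunits of the SWI/SNF chromatin remodelling complex, measured in rat induced pluripotent stem (iPS) cells set against a mixture of adult rat cells. Members were the 10 genes Smarca2, Smarca4, Smarcb1, Smarcc1, Smarcc2, Smarcd1, Smarcd2, Smarcd3, Smarce1 and Arid1a. They were found among the probes of a rat Agilent array by gene symbol, gene number, the main accession of a probe or older name. This gave 15 of 41012 probes and 10 of 35474 gene names. Every member had at least 1 probe that could be tested, and 14 of the 15 probes were tested, of 25836 on the whole array. Smarcc2 appears in the array files under the provisional name LOC685179, and a probe of Smarce1 under RGD1304726.

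Total RNA of 3 untreated samples of iPS line F65, grown on irradiated mouse embryonic fibroblasts as feeder cells, was labelled with Cy3. Each was hybridised on its own array against mix1, labelled with Cy5, which is a mixture of cultured bone marrow cells and cultured primary ear fibroblasts of the rat. The comparison asks how gene expression in the iPS cells differs from that in the adult cells. Values are processed signals of the scanner software, in array units, and log2 ratios of iPS F65 over mix1 on the same array. Nothing in the labels states whether the iPS samples were separate cultures. The p-values therefore rest on the spread among these 3 samples alone, which could be technical, and mix1, as 1 sample, adds no spread of its own. Cy3 held iPS F65 on every array, so the dyes and the cells cannot be told apart, and the number of arrays, 3, limits the precision. Because these are bulk samples, fewer cells of a type and less RNA per cell cannot be told apart either.

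SWI/SNF complexes use ATP to slide or evict nucleosomes. Each complex holds a single ATPase, either Smarca4 (also called BRG1) or Smarca2 (BRM). In the canonical form, BAF, the ATPase is joined by core subunits such as Smarcb1, Smarce1, Smarcc1 or Smarcc2 and a member of the Smarcd family. Canonical BAF also holds a large DNA-binding subunit such as Arid1a or Arid1b. Several positions in the complex can thus be filled by alternative paralogues, and embryonic stem cells are known for a form of the complex, esBAF, built on Smarca4 and Smarcc1 rather than Smarca2 and Smarcc2.

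Markers were measured first as a check of the labels. Of 15 listed markers of pluripotent cells 9 had a probe and 7 were tested. Of these 7, 6 were higher in iPS F65, among them Sox2 with a log2 ratio of 3.14 ± 0.40 (SD, n = 3) and Pou5f1, at least 4.61-fold. The remaining marker, Lin28a, was at -0.17 ± 0.04. Of 15 fibroblast markers all 15 were lower, with a summed signal of 23752 to 30351 in the iPS channel against 2538390 to 3227310 in the mix1 channel, and Thy1, Postn and Fap were not well above background on any array in the iPS channel. Of 12 tested myeloid markers 11 were lower, with summed signals of 3832 to 4925 against 268609 to 312851. Of 10 lymphoid markers 2 were tested, with Lck higher (1.04 ± 0.05) and Gzmb at least 1.74-fold lower. Of 8 erythroid markers 3 were tested, with Klf1 higher (2.27 ± 0.02) and none lower. Over all genes tested, 30.9% were called higher and 24.5% lower. The share of gene spots well above background was 57.1% to 61.2% for iPS F65 and 58.3% to 62.1% for mix1. The part of feeder RNA, and of the makeup of mix1, in the ratios of the SWI/SNF genes was not tested.

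Among the 10 members, Smarcc1, Arid1a and Smarcd1 were higher in iPS F65 and Smarcd3, Smarca2 and Smarcc2 were lower, while Smarca4, Smarce1, Smarcb1 and Smarcd2 changed by less than 2-fold. Calls used the brightest probe of a gene and needed both a 2-fold change and an adjusted p below 0.05 (limma, Benjamini-Hochberg). Over all 21785 genes tested, 30.9% were called higher, 24.5% lower and 55.4% in either direction, so the 3 members called in each direction, of 10, are close to the background share. With mean signals and loess the background shares differed. They were 18.3% higher and 26.1% lower with uneven backgrounds replaced, where 2 members were higher and 4 lower, 18.3% and 25.97% without background subtraction, where the member counts were also 2 and 4, and 10.8% and 9.51% with backgrounds as given, where 2 members were called in each direction. By adjusted p alone all 10 members passed, against 95.5% of all genes, so the 2-fold limit set nearly every call. The median log2 ratio of the members was -0.39, against 0.25 for all genes tested, with member medians of -0.41, -0.38 and -0.39 on the arrays of replicates 1, 2 and 3.

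**Figure D1:**
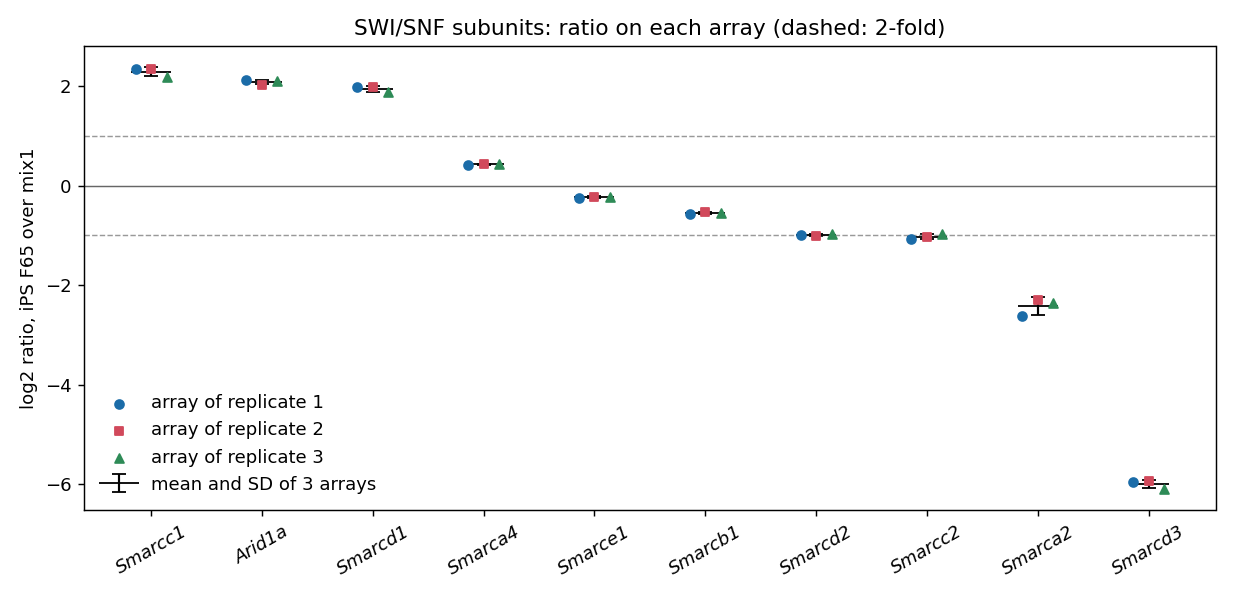
Log2 ratio of iPS F65 over mix1 (y axis) for the brightest probe of each of the 10 SWI/SNF subunit genes (x axis), with a point for each of the 3 arrays and the mean with its SD in black. Points of a gene lie close together, and the means run from 2.29 for Smarcc1 to -5.99 for Smarcd3.

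The order of the ratios ran from Smarcc1 (2.29) through Arid1a (2.08), Smarcd1 (1.95), Smarca4 (0.43), Smarce1 (-0.23), Smarcb1 (-0.55), Smarcd2 (-0.99), Smarcc2 (-1.02) and Smarca2 (-2.42) to Smarcd3 (-5.99). The spread between arrays was small, with SDs from 0.01 for Smarca4 to 0.18 for Smarca2. Smarcd1 was not well above background in mix1, so its ratio holds only as a bound and its place in the order is not settled. Of the neighbours among the other 9, Smarcd2 and Smarcc2 overlapped on the arrays, and the rest did not. Set among all genes tested, 90.9% had a lower ratio than Smarcc1 and 2.31% a lower ratio than Smarcd3. Smarca4 stood near the middle, with 54.6% of genes below it.

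The ATPase subunits differed from each other in their ratios. Smarca4 gave signals of 11379.5, 13228 and 13639 in iPS F65 and of 8531, 9732 and 10117 in mix1 on the 3 arrays. The iPS signal was the higher on each array, but by little, with log2 ratios of 0.42, 0.44 and 0.43. Their mean was 0.43 ± 0.01 (1.35-fold, adjusted p = 9.43e-05, under the 2-fold limit), and a second, dimmer probe of Smarca4 gave 0.65 ± 0.005 (1.57-fold). Smarca2 gave signals of 417, 609 and 586 in iPS F65 against 2572, 2979 and 2983 in mix1. The channels did not overlap, and the array of replicate 1 had the lowest iPS signal. Its log2 ratios of -2.63, -2.29 and -2.35 averaged -2.42 ± 0.18, which is 5.35-fold lower (adjusted p = 9.28e-05). With normexp on the backgrounds as given and loess it was at -1.64 and only just called (adjusted p = 0.0496, limma).

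The probes of the ATPases are shown because a probe of each gene covers a related stretch of sequence, so that a reader can compare them. Each is 60 bases long, written 5′ to 3′ as the array files give it, and capitals mark the 29 bases over which the first Smarca2 and Smarca4 probes can be laid side by side without gaps.
Smarca2: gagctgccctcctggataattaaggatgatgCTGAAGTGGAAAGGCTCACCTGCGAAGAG
Smarca4, dimmer probe: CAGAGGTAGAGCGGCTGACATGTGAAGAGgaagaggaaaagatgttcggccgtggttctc
Smarca4, brightest probe: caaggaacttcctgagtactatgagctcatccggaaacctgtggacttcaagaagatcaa
Over the capitals 21 of 29 bases were identical, and the longest identical run between these probes was 6 bases. The Smarca2 probe lies at chr1:230291319-230291378 and the Smarca4 probes at chr8:20789267-20789326 and chr8:20808865-20808924, all on the plus strand, in the coordinates of the array files, whose headers name build rn3. No annotation of that build was used here, so exons and untranslated regions are not assigned. Cross-binding of paralogue RNA was not tested.

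Smarcc1 and Smarcc2 encode the scaffold proteins BAF155 and BAF170, around which the core of the complex assembles. Smarcc1 gave 1949, 2338 and 2291 in iPS F65 and 384, 461 and 506 in mix1. Every iPS signal was above every mix1 signal. The log2 ratios of 2.34, 2.34 and 2.18 averaged 2.29 ± 0.09, or 4.88-fold higher (adjusted p = 2.45e-05). It was smaller with mean signals and loess, at 1.67 with uneven backgrounds replaced, 1.66 without background subtraction and 1.16 with backgrounds as given, where it was still called higher. Its probe is aligned to chr8:114583963-114585738, a span of 1776 bases for 60 bases of probe, and so is split on the genome, and it is shown because it carries the largest ratio among the members as reported. With backgrounds as given Arid1a was above it, at 1.55.
Smarcc1: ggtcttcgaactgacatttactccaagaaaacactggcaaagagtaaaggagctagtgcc
A further probe on chromosome 8, at positions 114589803 to 114589850, is on the minus strand, while the Smarcc1 probe is on the plus strand. This further probe is named for the expressed sequence tag BG057538, which the array files describe as similar to the same protein. It is no member by name and was looked up after the results were seen. It was not well above background in mix1 and at least 1.95-fold higher in iPS F65 (adjusted p = 0.00359, limma). Whether this probe measures Smarcc1 RNA was not tested.

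Smarcc2 gave 1777, 1998 and 2073 in iPS F65 against 3725, 4102 and 4057 in mix1 with its brightest probe. All iPS signals lay below all mix1 signals, close to 2-fold apart. Its log2 ratio was -1.02 ± 0.05, or 2.03-fold lower (adjusted p = 4.72e-05). The other probes gave smaller or opposite values. A dimmer probe of LOC685179 had log2 ratios of -0.44, -0.35 and -0.24 (mean -0.34 ± 0.10), under the 2-fold limit. A probe named LOC684513 had a mean of 0.27 ± 0.04. Its accessions include RefSeq transcripts of Smarcc2, but its name and main accession are not matched to that gene, so it is no member. With the median over the probes in place of the brightest, Smarcc2 was at -0.68 and lost its call.

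**Figure D2:**
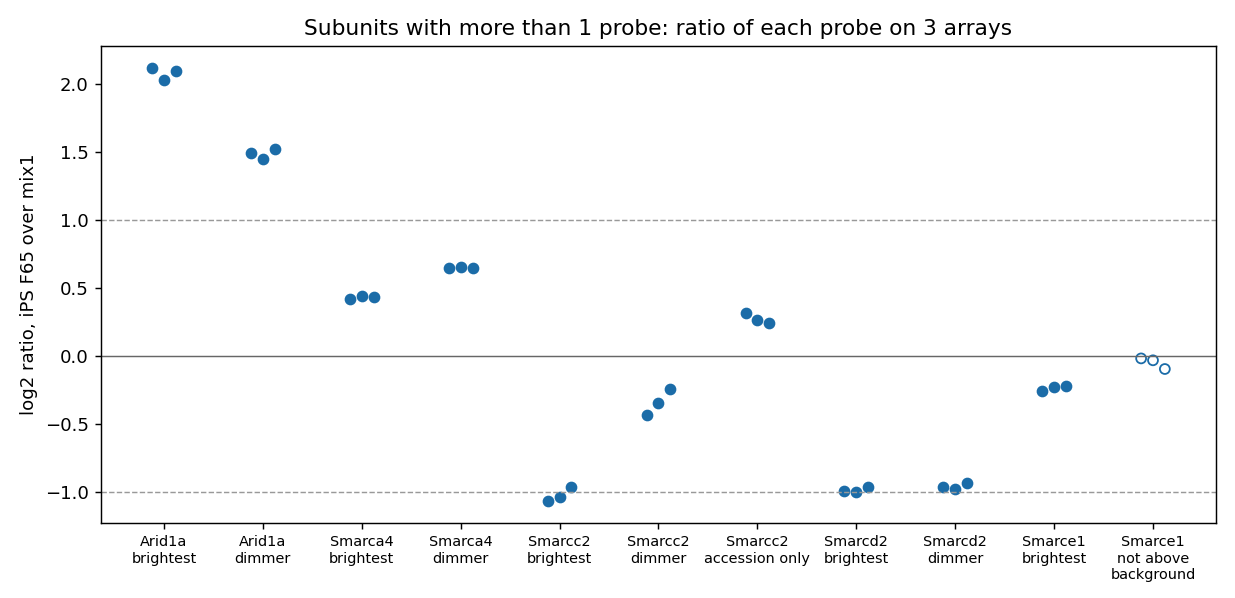
Log2 ratio of iPS F65 over mix1 (y axis) on each of the 3 arrays for every probe of the subunits with more than 1 probe (x axis), with filled points for tested probes and open points for a probe not well above background in either channel. The probes of Arid1a, Smarca4 and Smarcd2 lie on the same side of 0 within each gene, while those of Smarcc2, the accession-only probe included, run from -1.02 to 0.27.

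The Smarcd genes, which encode the BAF60 proteins that link the complex to transcription factors, went in both directions. Smarcd3, known as the BAF60c of heart and muscle, had the largest difference of any member. It gave 182, 222 and 197 in iPS F65 against 11286, 13508 and 13375 in mix1. All 3 iPS signals were low yet well above background. The log2 ratios of -5.96, -5.92 and -6.09 averaged -5.99 ± 0.08, which is 63.5-fold lower (adjusted p = 6.09e-06). With normexp on the backgrounds as given and loess it was at -4.24, still called lower. Smarcd2 gave 15664, 18395 and 18201 against 31259.9, 36874 and 35496. Every iPS signal lay below every mix1 signal, with a log2 ratio of -0.99 ± 0.02 (1.98-fold lower, adjusted p = 1.74e-05) for this probe and -0.96 ± 0.02 for a second one. That is just short of the 2-fold limit, and Smarcd2 was called lower without replicate 3 (-1.0001). It was also called lower with median centring (-1.26) and, at -1.22, in the loess versions other than that with backgrounds as given. With backgrounds as given and loess it was at -0.93 and not called.

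Smarcd1, the BAF60a subunit, was dim. It gave 192, 259 and 243 in iPS F65, and 48.6, 65.8 and 66.0 in mix1, where all 3 arrays left it not well above background. Only a bound is therefore held by the data, and the bound puts Smarcd1 at least 3.36-fold higher in iPS F65, from the mean log2 signal against the higher of its own mix1 signal and the lowest signal above background on each array. The fitted log2 ratio was 1.95 ± 0.06 (adjusted p = 1.41e-05). The call was lost in all 3 versions with mean signals and loess in place of processed signals, at 0.40 to 0.97. The bound is open to dye bias. The probe, at chr7:138524011-138524070, is shown because the only increase among the Smarcd genes rests on it.
Smarcd1: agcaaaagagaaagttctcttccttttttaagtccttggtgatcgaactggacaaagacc

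**Figure D3:**
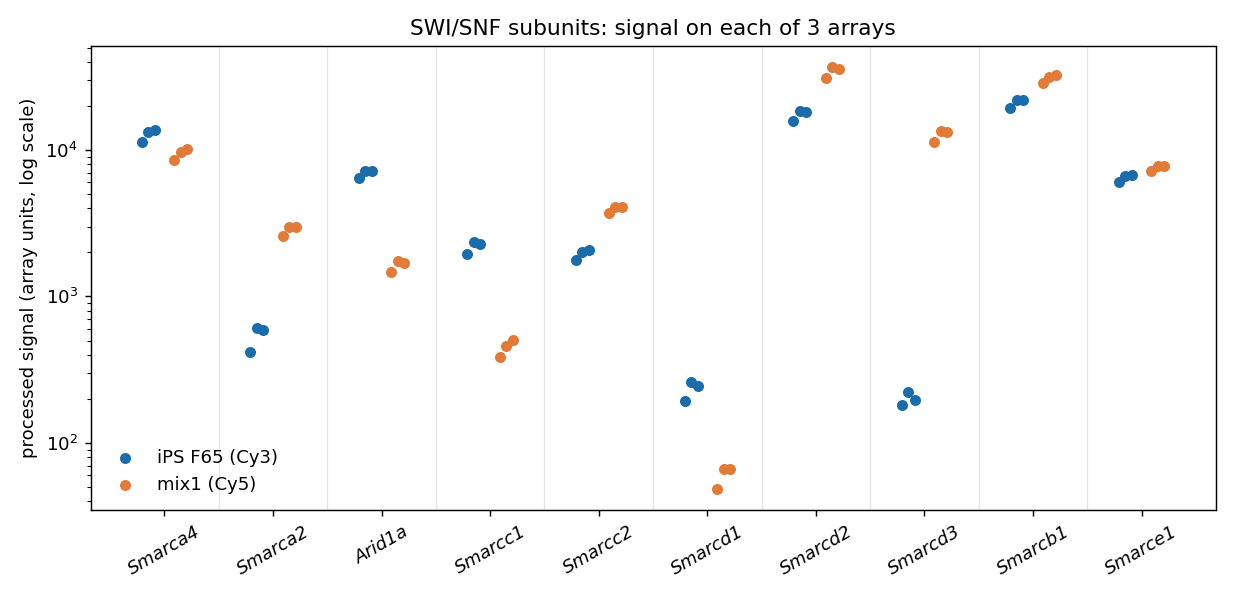
Processed signal in array units (y axis, log scale) of the brightest probe of each SWI/SNF subunit gene (x axis) on the 3 arrays, in blue for iPS F65 and in orange for mix1. Heights compare the channels within a gene and not one gene with another, and the channels are farthest apart for Smarcd3, with 182 to 222 in iPS F65 against 11286 to 13508 in mix1.

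Arid1a, the large DNA-binding subunit BAF250a of the canonical BAF complex, was higher in iPS F65 by both of its probes. The brightest gave 6422, 7147 and 7217 in iPS F65 against 1478, 1752 and 1688 in mix1, with no overlap. Its log2 ratios of 2.12, 2.03 and 2.10 averaged 2.08 ± 0.05, or 4.23-fold higher (adjusted p = 1.01e-05). The dimmer probe gave 1.49 ± 0.04, or 2.81-fold.

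The core subunits Smarcb1 and Smarce1, which have no paralogue among the members, changed by less than 2-fold. Smarcb1, the SNF5 subunit that binds the nucleosome, gave 19434, 21904 and 22123 in iPS F65 against 28735, 31599 and 32483 in mix1. The iPS signal was the lower on every array, with a log2 ratio of -0.55 ± 0.02 (1.46-fold lower, adjusted p = 5.99e-05, limma). Smarcb1 was at -0.82 with median centring and at -0.77 with uneven backgrounds replaced and loess, still under the 2-fold limit. Smarce1, the HMG-box subunit BAF57, gave 6008, 6617 and 6717 against 7171, 7750 and 7826 with its probe on chromosome 10. Its log2 ratio was -0.23 ± 0.02 (1.18-fold lower, adjusted p = 0.000606), the smallest difference of the members as reported, though Smarca4 was nearer to 0 with median centring and with both other loess versions than that on backgrounds as given.

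The probe that the array itself names Smarce1_predicted was dark. It gave 16.2 to 17.7 in iPS F65 and 16.7 to 17.9 in mix1, was below the background criterion for both dyes on each array, and was not tested. It is shown because its name would make it the gene's own probe, yet the array files place it at chr6:58611017-58611076 on the minus strand. The RefSeq gene table of the newer assembly GRCr8 has Smarce1 on chromosome 10 and lists 11 pseudogenes named for it, 2 of them on chromosome 6.
Smarce1_predicted: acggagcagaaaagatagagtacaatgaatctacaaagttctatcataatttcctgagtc

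Differences between paralogues were taken on each array, which compares changes and not levels. The ratio of Smarca4 exceeded that of Smarca2 by 3.04, 2.73 and 2.78 log2 units, a mean of 2.85 ± 0.17 (7.21-fold). Smarcc1 exceeded Smarcc2 by 3.31 ± 0.14 (9.93-fold), and Arid1a exceeded its paralogue Arid1b by 2.28 ± 0.07 (4.85-fold). For Smarcd1 only bounds hold, which put its ratio at least 6.67-fold above that of Smarcd2 and at least 213-fold above that of Smarcd3. In each of these 5 comparisons the difference had the same sign on all 3 arrays. An exact two-sided sign-flip permutation test gave p = 0.25 for each, also after adjustment over the 5 comparisons, which is the smallest value that 3 arrays allow, so this test cannot pass 0.05. With normexp on the backgrounds as given and loess, the difference shrank to 2.00 for Smarca4 minus Smarca2 and 2.15 for Smarcc1 minus Smarcc2, whose Smarcc2 value rests on its brightest probe. Fitted differences with Smarcd1, 2.93 from Smarcd2 and 7.94 from Smarcd3 on the log2 scale, became 1.33 and 4.63 there, below the bounds as reported.

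The other subunits of the BAF, PBAF and non-canonical (ncBAF) forms of the complex were read from a list of 20 genes. All 20 had a probe, 16 were tested, 9 were higher and 2 lower, with a median log2 ratio of 1.11 against 0.25 for all genes. The shares of all genes called were 30.9% higher and 24.5% lower. In the loess versions other than that with backgrounds as given, and with median centring, 7 were higher and 3 lower. Median centring called 24.5% of all genes higher and 28.4% lower. Those loess versions called 18.3% of all genes higher, and 26.1% (uneven backgrounds replaced) or 25.97% (no background subtraction) lower. With backgrounds as given and loess 6 subunits were higher and 1 lower, against 10.8% and 9.51% of all genes. With both channels above background the counts were 8 and 1, against 28.9% and 18.7% of all genes. Members that define PBAF were higher as reported, namely Arid2 (1.46 ± 0.01), the bromodomain gene Pbrm1 (1.57 ± 0.04), Brd7 (1.77 ± 0.03) and Phf10 (1.08 ± 0.03). Of these, Phf10 lay close to the 2-fold limit. Brd9, which marks ncBAF, was at 1.81 ± 0.06 and Bicra, also of ncBAF, at -0.42 ± 0.14. A dimmer probe of Pbrm1 stayed under the limit at 0.44 and another was higher at 2.18, while a dimmer probe of Bicra was at 0.66.

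Actl6a, the actin-related subunit of dividing cells, was higher by 1.72 ± 0.005 (3.29-fold), while the signals of its neuronal paralogue Actl6b were too close to background to test. Ss18 was at 1.14 ± 0.02 and its paralogue Ss18l1 was not well above background. Among the DPF genes, Dpf2 was at 0.10 ± 0.02 and Dpf1 at -0.54 ± 0.01, neither past the limit, and Dpf3 and the ncBAF gene Bicral were not well above background. These 4 untested genes are named to account for the list. Arid1b was at -0.20 ± 0.02.

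The BCL7 and BCL11 subunits held the widest range. Bcl7a gave 4359, 5155 and 5039 in iPS F65 against 372, 469 and 471 in mix1, a log2 ratio of 3.48 ± 0.07 (11.1-fold higher, adjusted p = 7.56e-06). Its paralogue Bcl7c went the other way at -1.44 ± 0.02 (2.72-fold lower), and Bcl7b was at -0.98 ± 0.01, short of the limit. Bcl11a and Bcl11b, zinc finger proteins known from blood and nerve cells, were each above background in only 1 channel. Bcl11a was at least 2.20-fold higher in iPS F65, with iPS signals of 132, 145 and 158. Bcl11b was at least 7.98-fold lower, with mix1 signals of 473, 548 and 555. A second probe of Bcl11b was above background on only 1 array in each channel and was not tested. Its mean log2 ratio was -0.13 over 2 arrays.

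**Figure D4:**
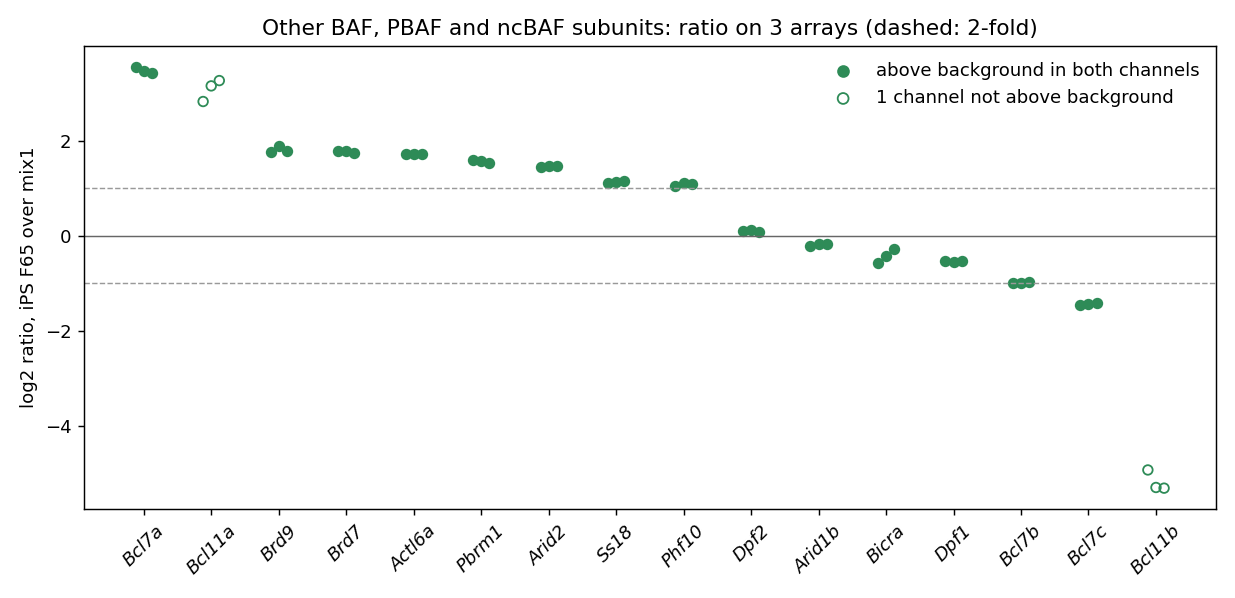
Log2 ratio of iPS F65 over mix1 (y axis) on each of the 3 arrays for the 16 tested genes of the list of other BAF, PBAF and ncBAF subunits (x axis). Bcl7a is highest at a mean of 3.48 and Bcl11b lowest at -5.18, and open points mark genes with 1 channel not well above background, whose ratio is better read as a bound.

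Other families of chromatin remodellers were counted in the same way, against 30.9% of all genes higher and 24.5% lower. Of 11 tested ISWI genes 6 were higher and none lower, led by the ATPase Smarca5 (2.35) and Baz1a (2.20). Of 16 CHD and NuRD genes 4 were higher, led by Chd7 (2.54) and Chd1 (1.60), and Mbd2 was lower (-1.07). Of 19 genes of the INO80, SRCAP and TIP60 complexes 7 were higher, led by Ep400 (2.46) and Ino80c (1.84), and Znhit1 was lower (-1.05). Dimmer probes of Ep400 were at 1.78 and, under the 2-fold limit, at 0.68. Of 9 other SNF2-family ATPases 7 were higher and none lower, with Ercc6 at 2.53 ± 0.02 and Hltf at 2.503 ± 0.02. Other settings had other shares of all genes higher, namely 24.5% with median centring and 10.8% with backgrounds as given and loess. In both other loess versions the share was 18.3%. The ISWI count of higher genes was 3 in the loess versions other than that with backgrounds as given and 2 with median centring. The CHD and NuRD count was 2 in all 3 loess versions and 3 with median centring. The INO80, SRCAP and TIP60 count was 4 with backgrounds as given, and 5 in the other loess versions and with median centring. For the other SNF2-family ATPases the count was 5 in all 3 loess versions and with median centring.

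The ratios depended on how signals, backgrounds and dyes were handled. With normexp, uneven backgrounds replaced and loess, the median of all genes moved from 0.25 to -0.08 and that of the members from -0.39 to -0.70, and the share of called genes that were higher moved from 55.8% to 41.2%. With each array's median set to 0 these were -0.02, -0.66 and 46.3%. All 10 members kept the sign of their ratio under every setting tried that gave them a value, Smarcd1 having none when both channels had to be above background. Members moved by unequal amounts, with Smarca4 at 0.08, Smarce1 at -0.64, Smarcd1 at 0.96 and Smarcd3 at -5.96 after that loess. With median centring Smarca4 was at 0.16 and Smarce1 at -0.51.

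**Figure D5:**
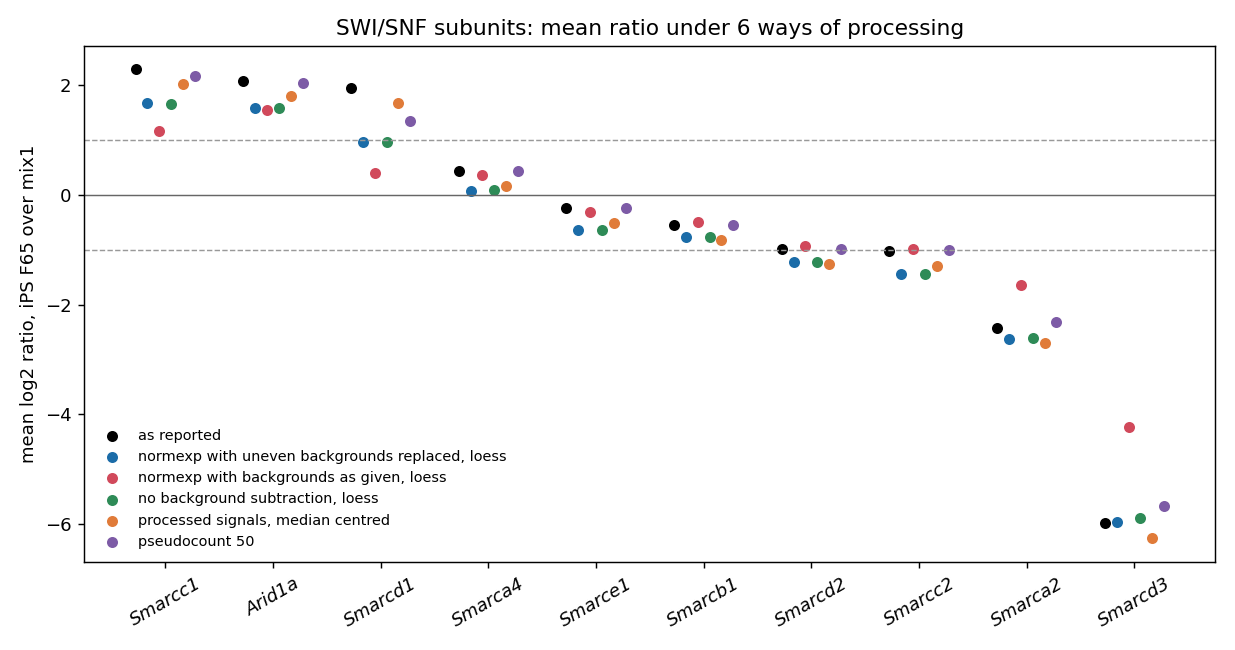
Mean log2 ratio of iPS F65 over mix1 (y axis) of each SWI/SNF subunit gene (x axis) under 6 ways of processing, each in its own colour. Signs do not change, and Smarcd1 falls from 1.95 as reported to 0.40 with normexp on the backgrounds as given and loess.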

How the data were processed

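Per the file headers, the deposited intensity values were made by the authors with Agilent Feature Extraction 9.5.3.1. Background subtraction and dye normalization had been applied to the processed signals of an array, while the mean and background signals carry no normalization. In the series matrix the deposited log2 values were those of green over red processed signal, to within 3.11e-06, with medians of 0.0026, -0.0052 and -0.060 on the 3 arrays. The deposited log10 ratio column was not used.

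Control spots and outlier-flagged spots (204 to 213 per array) were left out, no spot was saturated, and repeated spots were averaged per probe. Tested probes were those well above background on all 3 arrays in at least 1 channel. Each ratio was tested against 0 with limma 3.58.1 (R 4.3.3), adjusted over 25836 probes. A gene took its brightest probe. All arrays shared 1 slide and 1 scan. Probes were named through the RefSeq gene table of assembly GRCr8 by symbol (12660), gene number (1704), accession (3167) or older name (3730), and 19751 kept the file's name. The scripts were tested on simulated data. The members, lists and rule for named genes (all members, tested BAF subunits, the 2 largest calls per direction of other remodeller lists, and markers) were chosen with earlier results of these data known. Alternatives were other backgrounds, scalings, filters, probe rules and left-out replicates.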

Additional observations from a re-analysis of the deposited data

How the results depend on the processing

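Ratios compare iPS F65 with mix1 within each array, and no further pairing was possible because the series holds 1 group. Settings not named here kept each result on its side of the limit.

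With normexp, uneven backgrounds replaced and loess, Smarcd1 lost its call at 0.96 and Smarcd2 gained one at -1.22, with a member median of -0.70 and 3 ISWI and 2 CHD and NuRD genes higher. Without background subtraction before loess the values were 0.97, -1.22, -0.70, 3 and 2. With backgrounds as given, Smarcc2 (-0.99) and Smarcd1 (0.40) lost their calls, 1 other BAF subunit was lower, and 2 CHD and NuRD and 4 INO80, SRCAP and TIP60 genes were higher. Median centring called Smarcd2 lower (-1.26), with a member median of -0.66, 2 ISWI genes higher and 2 CHD and NuRD genes lower. Requiring both channels above background left out Smarcd1 and gave a member median of -0.55 and 1 other BAF subunit lower. The median over probes lost the call of Smarcc2 (-0.68). Without the 2-fold limit 6 members, 6 other BAF subunits and 4 CHD and NuRD genes were lower, since fewer conditions were set. Higher there were 10 ISWI, 10 CHD and NuRD and 15 INO80, SRCAP and TIP60 genes. The shares of all genes also rose without that limit, to 54.4% higher and 41.1% lower. Leaving out each replicate in turn put Smarcd2 between -1.0001 and -0.98, with its call gained without replicate 3. Apart from the filter and the limit, the cause was not tested. Signal at background in 1 channel limits Smarcd1, Bcl11a and Bcl11b to bounds.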
